A study of Rattus norvegicus with 20 samples.

Results

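The genes described here are 10 genes by which microglia, the resident macrophages of the brain, are commonly recognised: the receptors Csf1r, Cx3cr1, P2ry12 and Trem2, the 3 chains of complement C1q (C1qa, C1qb and C1qc), the complement receptor chain Itgam, and the marker genes Aif1 and Tmem119. They were taken by symbol from the 31038 genes of a matrix of read counts, and all 10 were present. Poly(A) RNA was sequenced from the medial prefrontal cortex (mPFC) of 20 male Sprague-Dawley rats, with 1 library per rat. The LSD group of 10 rats was injected i.p. with LSD at 0.16 mg/kg on alternate days over 90 days, and the saline group of 10 rats was given sterile saline on the same schedule. All rats were 6 to 8 weeks old at the start and were sampled after 3 weeks without injections according to the labels, while the study's methods give an older starting age and a longer interval for both groups alike. The tissue came from 1 hemisphere of each brain and was not sorted, so that each value is an average over neurons, glia and vessels.

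The libraries held 16346629 to 25552681 reads on genes (median 20271086) in the LSD group and 11098076 to 24201351 (median 16815424) in the saline group, a difference in size with p = 0.0147 by the exact rank sum test (two-sided, n = 10 per group). Levels are given as RPM, library-scaled read counts after TMM normalisation, a value for each rat that is not divided by gene length, so levels are compared between rats and not between genes. Each of the 10 genes reached the minimum of 5 reads in 10 or more rats, with between 112 reads (Aif1) and 4094 reads (Csf1r) per rat. Other defining microglial genes were present as well, with 79 to 402 reads for Gpr34 and 38 to 146 for P2ry13, whereas Siglech had 0 to 2 reads and Adora3 had none in any rat. A single library stood apart in these genes, that of rat 3 of the LSD group, which had the highest level of 7 of the 10, and results that rest on it are given with and without it.

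Microglia depend on signalling through Csf1r for their survival, survey the tissue with processes guided by P2ry12, and receive signals from neurons through Cx3cr1. C1q, which in the brain is made mainly by microglia, starts the classical complement cascade, whose C3 fragments are bound by the receptor that contains Itgam, and this route is known for the tagging and removal of synapses. Trem2 binds lipids and lipoproteins and passes its signal through the adaptor Tyrobp, and it is required for the switch of microglia from the homeostatic to the disease-associated state.

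Many myeloid genes carry near their start the purine-rich PU box bound by PU.1, the product of Spi1 and the main transcription factor of the macrophage lineage. RefSeq windows in the GRCr8 build, of the 250 bases before the start, were at hand for 6 of the 10 genes (Cx3cr1, Csf1r, C1qa, C1qb, Itgam and Trem2). Since the counts were made on rn6, the positions below belong to GRCr8 alone. The letters GAGGAA, searched on both strands (TTCCTC is the reverse), occurred in 4 of the 6 windows, against 7812 of 33469 windows of the same length (23.3%) over all genes. Matches started 229 and 95 bases before the start of Csf1r, 247 and 90 bases before that of C1qb, 151 and 39 bases before that of Itgam and 29 bases before that of Trem2. C1qa and C1qb lie on the same chromosome, and their levels correlated across rats (Pearson's r = 0.915, or 0.770 without rat 3 of the LSD group). The windows of both and of Trem2, the gene that differed between the groups, are shown with matches in capitals, and that of C1qa holds none. They lie on the minus strand at chr9:20151780-20152029 (Trem2), chr5:154419934-154420183 (C1qa) and chr5:154407828-154408077 (C1qb), and are written 5′ to 3′ in the direction of transcription.
Trem2: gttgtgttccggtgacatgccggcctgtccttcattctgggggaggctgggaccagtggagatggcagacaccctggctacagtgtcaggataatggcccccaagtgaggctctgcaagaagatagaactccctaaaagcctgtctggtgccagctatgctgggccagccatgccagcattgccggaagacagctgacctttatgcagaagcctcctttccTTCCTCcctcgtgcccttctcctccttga
C1qa: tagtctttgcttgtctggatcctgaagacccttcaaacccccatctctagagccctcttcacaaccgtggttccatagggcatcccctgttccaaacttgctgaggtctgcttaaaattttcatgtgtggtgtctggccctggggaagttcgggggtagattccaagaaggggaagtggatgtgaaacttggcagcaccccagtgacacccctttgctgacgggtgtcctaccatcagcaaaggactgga
C1qb: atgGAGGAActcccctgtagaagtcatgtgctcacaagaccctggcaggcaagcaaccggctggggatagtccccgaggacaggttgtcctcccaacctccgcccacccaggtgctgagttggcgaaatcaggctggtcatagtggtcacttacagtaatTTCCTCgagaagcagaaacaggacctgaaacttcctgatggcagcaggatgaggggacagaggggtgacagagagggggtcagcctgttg

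The main comparison asked whether chronic LSD left a lasting difference in the expression of these genes. Trem2 was lower in LSD-treated rats, and the other 9 genes did not pass the test. All 10 genes were tested together with the 16605 genes retained, with edgeR's quasi-likelihood test and Benjamini-Hochberg adjustment at 0.05, and Trem2 was also the only one of the 10 with an unadjusted p under 0.05 or with a call by DESeq2. Of all genes, 8.54% were called lower, 6.48% higher and 15.0% in either direction, so that 1 called gene of 10 is not more than the share over all genes. For none of the 10 did the levels of the groups fail to overlap, which was the case for 0.193% of all genes. The median log2 fold change of the 10 genes was 0.01, against 0.002 over all genes, and it was -0.08 without rat 3 of the LSD group. Since the tissue is whole mPFC, fewer microglia and less RNA per cell cannot be told apart in any of these values.

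**Figure D1:**
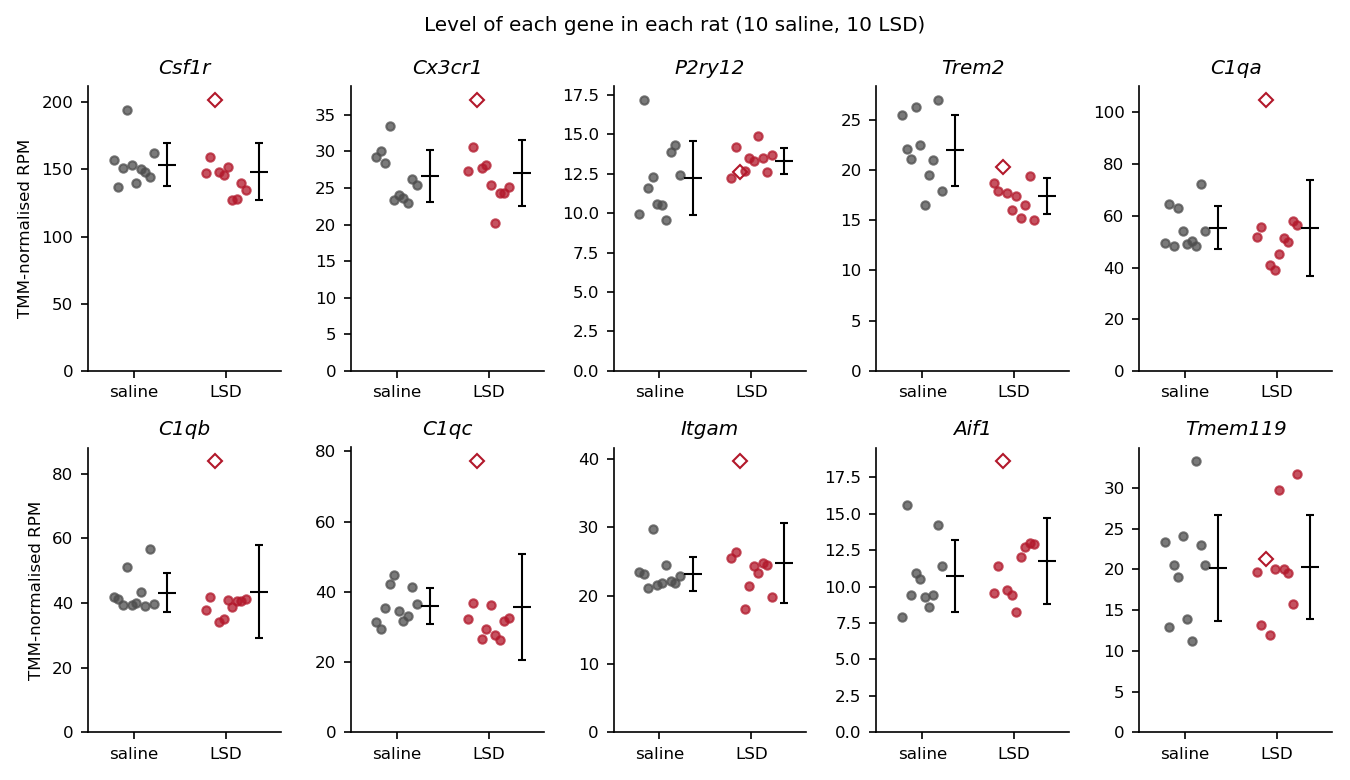
Level of each of the 10 genes in each rat (vertical axes: TMM-normalised RPM, starting at 0) for 10 saline-treated rats (grey) and 10 LSD-treated rats (red), with the mean and SD beside each group and rat 3 of the LSD group as an open diamond. No LSD-treated rat lies above the saline median of 21.6 RPM for Trem2, while the open diamond is the highest point for 7 of the 10 genes.

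Trem2 ranged from 15.0 to 20.3 RPM (median 17.5) in LSD-treated rats and from 16.5 to 27.0 RPM in controls (median 21.6). All 10 LSD-treated rats were below the saline median, 7 of the 10 controls were above the highest LSD-treated rat, and the remaining 3 controls fell within the range of the LSD group. The mean level was 17.4 ± 1.75 RPM (SD, n = 10) with LSD and 21.9 ± 3.51 RPM (SD, n = 10) with saline, from 243 to 555 reads per rat. The log2 fold change was -0.33 (SE 0.085, SE-based 95% interval -0.51 to -0.16, adjusted p = 0.0135 by edgeR), a change in level of -20.7%. It was -0.36 without rat 3 of the LSD group (adjusted p = 0.0152), between -0.37 and -0.30 with each rat left out in turn (adjusted p between 0.00635 and 0.0293), and -0.32 when reads were drawn down to the smallest library (adjusted p = 0.0174, all by edgeR). The change was smaller with total-count scaling, at -0.29 (adjusted p = 0.0208), and with a correction for the genomic span of genes, at -0.26 (adjusted p = 0.0343, both by edgeR).

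The difference of Trem2 was also present relative to the other 9 genes of the same rat. The log2 level of Trem2 minus the mean log2 level of the other 9 was -0.80 ± 0.21 (SD, n = 10) with LSD, ranging from -1.19 to -0.51, and -0.46 ± 0.17 (SD, n = 10) with saline, ranging from -0.76 to -0.17. In 7 of the 10 LSD-treated rats it was below the lowest control, and in all 10 it was below the saline median. The lowest value was that of rat 3 of the LSD group, in which 7 of the other 9 genes were the highest of all rats. Without this rat the LSD values ranged from -1.06 to -0.51. LSD rats 2, 5, 6 and 8, at -0.80 to -0.78, were only slightly below the lowest control at -0.76. The mean log2 level of the other 9 genes was 4.92 ± 0.23 (SD, n = 10) with LSD, raised by rat 3, and 4.90 ± 0.13 (SD, n = 10) with saline. It ranged from 4.65 to 5.54 with LSD and from 4.70 to 5.10 with saline. These differences between genes are a description without a test, since Trem2 was set apart after its own result was known. Relative to its adaptor Tyrobp, Trem2 stood at 0.64 ± 0.20 with LSD and 0.90 ± 0.25 with saline on the log2 scale (SD, n = 10 each), and 9 of 10 LSD-treated rats were below the saline median.

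Among the receptors for survival and neuronal signals, Csf1r, the receptor of Csf1 and Il34, ranged from 127 to 202 RPM with LSD (median 146) and from 137 to 194 RPM with saline (median 150.4). The ranges overlapped almost wholly, with 3 LSD-treated rats below the lowest control. Its log2 fold change was -0.05 (95% interval -0.20 to 0.10, adjusted p = 0.704 by edgeR), or -0.11 without rat 3 of the LSD group (adjusted p = 0.242). Cx3cr1, the receptor of the neuronal chemokine fractalkine, ranged from 20.2 to 37.1 RPM with LSD (median 26.3) and from 22.9 to 33.5 RPM with saline (median 25.8), with a log2 fold change of 0.02 (95% interval -0.17 to 0.20, adjusted p = 0.924), or -0.04 without that rat (adjusted p = 0.759). All 10 controls lay within the range of the LSD group, and 5 of 10 LSD-treated rats were above the saline median.

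P2ry12, the ADP receptor of surveying microglia, ranged from 12.2 to 14.9 RPM with LSD (median 13.4) and from 9.56 to 17.2 RPM with saline (median 11.9). All 10 LSD-treated rats were above the saline median, but they lay within the range of the controls. The log2 fold change was 0.12 (95% interval -0.07 to 0.30, adjusted p = 0.391 by edgeR), or 0.19 without rat 2 of the saline group (adjusted p = 0.0765) and 0.074 with the span correction (adjusted p = 0.636). The coefficient of variation was 6.33% with LSD and 19.4% with saline, a difference of spread that was not tested. Across the 20 rats P2ry12 had a correlation of r = 0.644 with library size (adjusted permutation p = 0.0606), and the saline group held the 4 smallest libraries.

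The chains of C1q, which form the recognition subunit of the complement cascade, did not pass the test. C1qa ranged from 39.1 to 105 RPM with LSD (median 51.7) and from 48.2 to 72.4 RPM with saline (median 52.2). C1qb ranged from 34.2 to 83.9 RPM with LSD (median 40.6) and from 39.0 to 56.6 RPM with saline (median 40.7). C1qc ranged from 26.4 to 77.2 RPM with LSD (median 32.0) and from 29.3 to 44.7 RPM with saline (median 35.0). The highest value of each chain was that of rat 3 of the LSD group, and for each chain 3 or 4 LSD-treated rats were below the lowest control. The log2 fold changes were -0.00 for C1qa (95% interval -0.28 to 0.28, adjusted p = 0.996), 0.01 for C1qb (-0.25 to 0.27, adjusted p = 0.975) and -0.01 for C1qc (-0.33 to 0.31, adjusted p = 0.968, all by edgeR). Without rat 3 they were -0.15 for C1qa (adjusted p = 0.262), -0.15 for C1qb (adjusted p = 0.161) and -0.21 for C1qc (adjusted p = 0.0978), so this 1 rat held the estimates near 0, and none passed the test either way. The intervals leave room for a change of up to about 0.3 in either direction.

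Itgam, also known as CD11b, ranged from 18.0 to 39.7 RPM with LSD (median 24.4) and from 21.2 to 29.7 RPM with saline (median 22.6). The highest LSD-treated rat was again rat 3, and all 10 controls lay within the LSD range. The log2 fold change was 0.09 (95% interval -0.12 to 0.30, adjusted p = 0.586 by edgeR), or -0.01 without that rat (adjusted p = 0.961).

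Aif1, which encodes the actin-binding protein Iba1 used to stain microglia, ranged from 8.24 to 18.6 RPM with LSD (median 11.7) and from 7.91 to 15.6 RPM with saline (median 9.95). Its log2 fold change was 0.13 (95% interval -0.15 to 0.41, adjusted p = 0.562 by edgeR), or 0.03 without rat 3 of the LSD group (adjusted p = 0.889). Tmem119, a membrane protein that separates microglia from blood-derived macrophages, was the most variable of the 10 among controls, with a coefficient of variation of 31.2% with LSD and 32.1% with saline. It ranged from 11.9 to 31.7 RPM with LSD (median 19.8) and from 11.2 to 33.3 RPM with saline (median 20.6), and the wide interval of its log2 fold change of 0.01 (-0.37 to 0.39, adjusted p = 0.98) follows this spread.

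**Figure D2:**
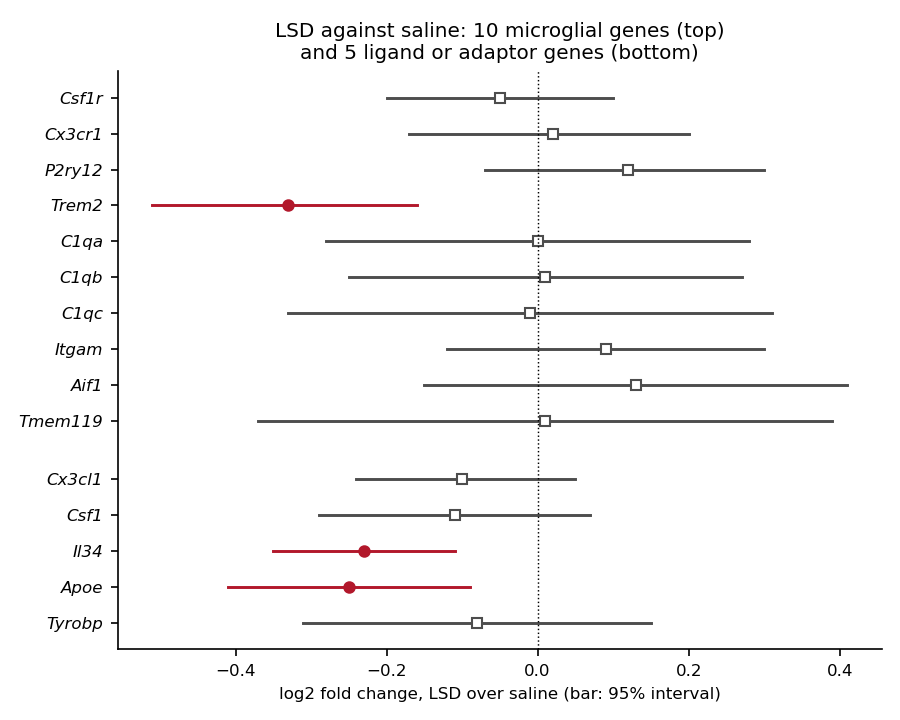
Log2 fold change of LSD over saline with its 95% interval for the 10 microglial genes and for 5 genes of their ligands, an adaptor and a lipoprotein (red circles: adjusted p under 0.05 by edgeR, n = 10 rats per group). Trem2 at -0.33, Il34 at -0.23 and Apoe at -0.25 have intervals below 0, and those of the remaining 12 genes include 0.

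The partners of these receptors were examined in a list of 12 ligands, adaptors and proteases, of which 0 were called higher (1 at an unadjusted p under 0.05, 0 by DESeq2) and 2 lower, and the median log2 fold change was -0.08. The share called was 16.7%, against 15.0% of all genes. Il34, the neuronal ligand of Csf1r, was lower with LSD. It ranged from 59.5 to 71.6 RPM (median 65.2) in LSD-treated rats and from 68.6 to 98.0 RPM in controls (median 75.6), and all 10 LSD-treated rats were below the saline median. Its log2 fold change was -0.23 ± 0.058 (SE, adjusted p = 0.014 by edgeR), and it passed the test with each rat left out (highest adjusted p 0.0303). Apoe, a lipoprotein that Trem2 binds and that astrocytes make in large amounts, ranged from 2378 to 3550.1 RPM with LSD and from 3169 to 4668 RPM with saline, with a log2 ratio of LSD to saline of -0.25 (adjusted p = 0.0351). This call was lost on omission of any of 8 rats, with an adjusted p of up to 0.0674.

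Csf1, the other ligand of Csf1r, was at 10.1 ± 0.829 RPM with LSD and 10.8 ± 1.88 RPM with saline (SD, n = 10 each), a log2 fold change of -0.11 (adjusted p = 0.436 by edgeR). Cx3cl1, which encodes fractalkine, was at 743 ± 91.3 RPM with LSD and 794 ± 75.9 RPM with saline (log2 fold change -0.10, adjusted p = 0.37). Tyrobp was at 11.2 ± 1.94 RPM with LSD and 11.8 ± 2.45 RPM with saline (log2 fold change -0.08, 95% interval -0.31 to 0.15, adjusted p = 0.667). None of these 3 genes passed the test. Adam10, a protease that sheds the outer part of Trem2 and of fractalkine, had a log2 ratio of LSD to saline of 0.15 (adjusted p = 0.107), and Adam17 one of -0.07 (adjusted p = 0.567). Syk and Plcg2, which act downstream of Tyrobp, had log2 fold changes of -0.03 (adjusted p = 0.843) and 0.09 (adjusted p = 0.654).

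Further microglial genes were described by lists, in which 168 genes beside the 10 passed the filter. Of these, 21 were called (12.5%), 5 higher and 16 lower, against 15.0% of all genes. With scaling by total counts 15 were called, 6 higher and 9 lower, and over all genes the calls turned from 1076 higher and 1418 lower to 1504 higher and 858 lower. In the 5 lists of microglial, myeloid, partner and complement genes, 14 of 114 genes were called (12.3%), 2 higher and 12 lower. Of the 21 calls, 9 held with every rat left out and 12 were lost on omission of 5 to 14 single rats. Without rat 3 of the LSD group, 18 were called, 2 higher and 16 lower. The 9 that held were Crybb1, Itgb5, Il34, C5ar1, Calr, Ctsb, Tubb3, Aldoc and Cldn11, of which Calr (adjusted p = 0.0949) and Tubb3 (adjusted p = 0.0538) lost the call in edgeR after a correction for the genomic span of genes.

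Of 15 other homeostatic microglial genes, 0 were called higher by edgeR (2 at an unadjusted p under 0.05, 1 by DESeq2) and 2 lower, and the median log2 fold change was 0.01. The share called was 13.3%, against 15.0% of all genes. Crybb1 ranged from 1.12 to 2.91 RPM with LSD (median 1.69) and from 2.07 to 3.42 RPM with saline (median 2.70), and 9 of 10 LSD-treated rats were below the lowest control. Its log2 fold change was -0.64 ± 0.14 (SE, adjusted p = 0.00807 by edgeR), from only 20 to 74 reads per rat. Itgb5, an integrin chain that other brain cells express as well, ranged from 59.2 to 71.3 RPM with LSD (median 66.2) and from 71.1 to 95.6 RPM with saline (median 80.3), with a log2 fold change of -0.33 ± 0.055 (SE, adjusted p = 0.00357). P2ry13 and Gpr34 had log2 fold changes of 0.10 (adjusted p = 0.492) and 0.01 (adjusted p = 0.972).

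Of 36 myeloid lineage genes, 0 were called higher by edgeR (1 at an unadjusted p under 0.05, 0 by DESeq2) and 3 lower, and the median log2 fold change was 0.03. The share called was 8.33%, against 15.0% of all genes. Without rat 3 of the LSD group, 5 were called lower and the median was -0.07, whereas 0 were called with total-count scaling, without the filter or with the span correction. The 3 were Cebpa, a transcription factor of the lineage (log2 fold change -0.24, adjusted p = 0.0431), Coro1a, an actin-binding protein of leukocytes that neurons also make (-0.21, adjusted p = 0.0419), and Arhgdib, a regulator of small GTPases (-0.28, adjusted p = 0.032, all by edgeR). Spi1 was at 6.34 ± 1.82 RPM with LSD and 6.70 ± 1.10 RPM with saline (SD, n = 10 each), a log2 fold change of -0.08 (adjusted p = 0.735). Itgb2, the chain with which Itgam pairs, had a log2 fold change of 0.01 (95% interval -0.17 to 0.19, adjusted p = 0.945).

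In the complement cascade, of 34 genes 1 was called higher and 2 lower (8.82% called, against 15.0% of all genes), and the median log2 fold change was -0.02. C5ar1, the receptor of the C5a fragment, ranged from 0.987 to 1.82 RPM with LSD (median 1.31) and from 1.57 to 2.11 RPM with saline (median 1.90), and all 10 LSD-treated rats were below the saline median. Its log2 fold change was -0.50 ± 0.11 (SE, adjusted p = 0.00902 by edgeR), from 17 to 42 reads per rat. Calr, a chaperone that binds C1q at the surface of dying cells, was lower with a log2 ratio of LSD to saline of -0.18 (adjusted p = 0.00757), and Cd47, a signal of healthy cells that holds back phagocytes, was higher with 0.20 (adjusted p = 0.047). Both are made by most cell types. The call of Calr was lost with the span correction (-0.098, adjusted p = 0.0949), and that of Cd47 on omission of any of 14 rats, without the filter (adjusted p = 0.0617) and with the span correction (adjusted p = 0.129, all by edgeR). The proteases C1r and C1s, which join C1q in the C1 complex, had log2 fold changes of -0.22 (adjusted p = 0.467) and 0.01 (adjusted p = 0.984), and C3 one of 0.24 (95% interval -0.19 to 0.66, adjusted p = 0.469).

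Of 22 activated and disease-associated microglial genes, 1 was called higher and 4 were lower, and the median log2 fold change was -0.13. The share called was 22.7%, against 15.0% of all genes, and no test of the list was made. The lower ones were Apoe and the lysosomal genes Ctsb (log2 fold change -0.19, adjusted p = 0.0095), Ctsz (-0.32, adjusted p = 0.046) and Cd63 (-0.27, adjusted p = 0.0415), all of which other brain cells also express. The higher one was Ptgs2, which encodes the prostaglandin synthase COX-2 and in cortex is chiefly a gene of excitatory neurons (0.43, adjusted p = 0.0308, all by edgeR). Without rat 3 of the LSD group, 0 of these genes were called higher and 3 lower, and with total-count scaling, without the filter or with the span correction 1 was called higher and 1 lower. Over all genes, these settings called 2362 of 16605, 1796 of 25199 and 1717 of 16605, against 2494 of 16605 in the main fit.

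**Figure D3:**
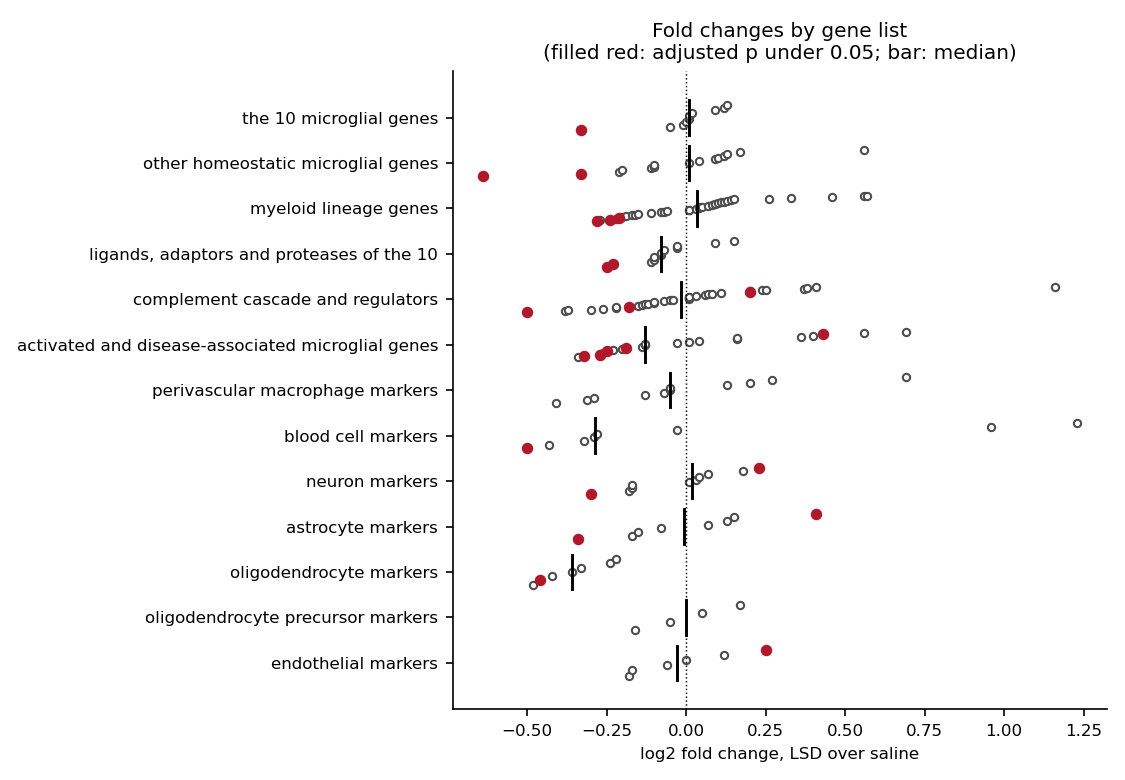
Log2 fold change of LSD over saline for every gene that passed the filter, by list (rows), with called genes in filled red and the median of each list as a bar. The medians of the microglial and complement lists lie between -0.13 and 0.03, that of the oligodendrocyte list at -0.36, and 0 to 5 genes are called in each list.

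Markers of other cell types were measured beside these genes, in the same fit in which 15.0% of all genes were called. Perivascular macrophage markers had 0 of 11 genes called by edgeR (0 at an unadjusted p under 0.05, 0 by DESeq2), with a summed level of 73.7 to 351 RPM with LSD and 53.3 to 205 RPM with saline. Blood cell markers had 1 of 8 called, the haemoglobin gene Hbb (log2 fold change -0.50, adjusted p = 0.0434 by edgeR), and a summed level of 201 to 486 RPM with LSD and 274 to 761 RPM with saline, while the leukocyte genes S100a8, Ngp, Cd3d, Ms4a1 and Klrd1 were below the filter. Neuron markers had Gad2 higher (0.23, adjusted p = 0.0369) and Tubb3 lower (-0.30, adjusted p = 0.0218) among 10 genes, and astrocyte markers Slc1a2 higher (0.41, adjusted p = 0.0423) and Aldoc lower (-0.34, adjusted p = 0.00408) among 8. Of 7 oligodendrocyte markers, all had a negative log2 fold change, with a median of -0.36, and Cldn11 was called (-0.46, adjusted p = 0.0175). The summed level of the oligodendrocyte list was 2354 to 5979 RPM with LSD and 2388 to 7724 RPM with saline. Of 4 oligodendrocyte precursor markers 0 were called by edgeR (0 at an unadjusted p under 0.05, 0 by DESeq2). Of 6 endothelial markers, 3 had a negative log2 fold change, and the median was -0.03. Abcb1a was called higher (0.25, adjusted p = 0.0416 by edgeR). That call was lost on omission of any of 12 rats, with reads drawn down (adjusted p = 0.0797) and with the span correction (adjusted p = 0.211). Cldn5 was at -0.18 (adjusted p = 0.0517) and Pecam1 at -0.17 (adjusted p = 0.164, all by edgeR), and 1 endothelial gene was called lower by DESeq2. The part of these cell types in the lower Trem2 level was not tested.

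Rat 3 of the LSD group differed from all others in its microglial genes, and not by a common factor. Its 10 genes summed to 618 RPM, whereas the other LSD-treated rats had 347 to 407 RPM and the controls 359 to 482 RPM. C1qa, C1qb and C1qc were at 105, 83.9 and 77.2 RPM in this rat, 2.04, 2.07 and 2.37 times the median of the other 19 rats. Aif1 (1.78 times), Itgam (1.71 times), Cx3cr1 (1.46 times) and Csf1r (1.37 times) were the highest of the 20 rats as well. Trem2 at 20.3 RPM was 1.09 times the median of the others and ranked 8 of 20, Tmem119 was 1.06 times and ranked 7, and P2ry12 was 0.988 times and ranked 11. Within the LSD group alone, Trem2 was also highest in this rat, against 17.1 ± 1.51 RPM (SD, n = 9) in the other LSD-treated rats, the next being 19.4 RPM.

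The same rat was the highest of all 20 and at least 2 times the median of the other 19 for 124 of the 16605 genes (0.747%). In the lists it was so for 0 of the genes on the partner, neuron, astrocyte, oligodendrocyte, precursor and endothelial lists. It was so for 7 of 36 myeloid genes, 3 of 34 complement genes, 3 of 22 activated microglial genes and 1 of 15 other homeostatic microglial genes. Among these were the phagocyte genes Cd68 (16.3 RPM, 6.53 times) and Fcgr3a (13.8 RPM, 5.07 times), the NADPH oxidase genes Cybb (3.73 times) and Ncf1 (2.56 times), the complement genes C2 (3.62 times) and C3 (179.9 RPM, 3.10 times), and Clec7a (6.77 times). On the macrophage and blood lists the genes were Cd74 (325 RPM, 7.72 times), which made up most of that rat's perivascular macrophage sum of 351 RPM, and Plac8 (8.96 times). The 5 genes with the highest ratio, chosen after their values were seen among genes with a median of at least 1 RPM, were C4b (11.3 times), the class II antigen presentation genes RT1-Db1 (10.9 times), RT1-Ba (27.9 RPM against a median of 2.78 RPM) and RT1-Da (8.59 times), and Cd74. C4b has a near-identical neighbour in C4a, so its counts are uncertain, and reads may likewise be shared among the RT1 genes. The part of perivascular macrophages and blood cells in the values of this rat was not tested.

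**Figure D4:**
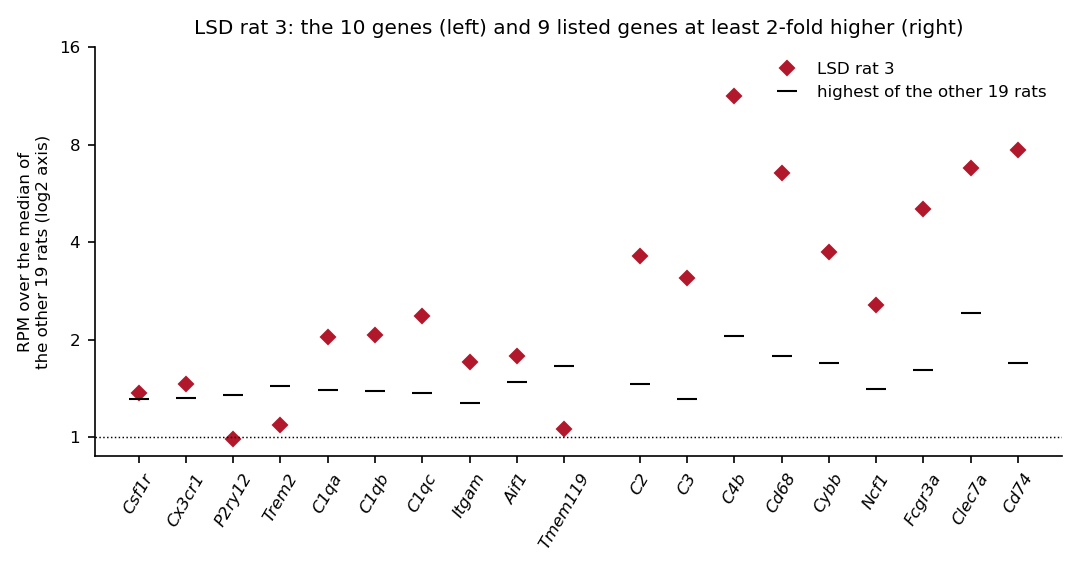
RPM of rat 3 of the LSD group divided by the median of the other 19 rats (red diamonds, vertical axis on a log2 scale) and the highest of the other 19 rats on the same scale (black bars), for the 10 microglial genes and 9 listed genes at least 2 times that median. The diamond lies above the bar for 7 of the 10 genes, with C1qc at 2.37 times, and near 1 for P2ry12, Tmem119 and Trem2.

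How far the 10 genes varied together was measured as Pearson's r and Spearman's rho over the 20 rats for each of the 45 pairs, on log2(RPM + 1) centred within each group, with permutation of the rats within groups and adjustment over the 45 pairs. The median r was 0.468, ranging from -0.234 to 0.915, and 16 pairs had an adjusted p under 0.05 by Pearson's r but 1 pair by rho. Without rat 3 of the LSD group the median r was 0.208. The median r was 0.548 within the LSD group and 0.311 within the saline group.

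The pair that passed both tests was Aif1 and C1qa, with r = 0.845 (adjusted permutation p = 0.0009) and rho = 0.826 (adjusted permutation p = 0.00135). It was r = 0.797 without rat 3, 0.779 without the 2 rats farthest from the median of Aif1, 0.878 within the LSD group and 0.866 within the saline group. The chains of C1q, whose proteins are assembled into 1 molecule, correlated with r = 0.915 for C1qa and C1qb (adjusted permutation p = 0.00225), 0.856 for C1qb and C1qc (adjusted permutation p = 0.0221) and 0.783 for C1qa and C1qc (adjusted permutation p = 0.0261). By rho, which was 0.636, 0.465 and 0.472, none of the 3 passed, with adjusted permutation p between 0.0864 and 0.196. Without rat 3, r was 0.770, 0.468 and 0.378, and without the 2 rats farthest from the median it was 0.692, 0.444 and 0.321.

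Trem2 had r between 0.0712 and 0.567 with the other 9 genes (median 0.432, or 0.337 without rat 3). Its highest r was with Cx3cr1, at 0.567 (adjusted permutation p = 0.0261, rho = 0.540 with adjusted permutation p = 0.157), and it was 0.404 without the 2 rats farthest from the median of Cx3cr1. Tmem119 stood apart, with r between -0.150 and 0.236 and a median of 0.0514 over its 9 pairs, none of which had an adjusted p under 0.05. Its levels, which spread over a wide range in both groups, showed no clear relation to those of the other 9 genes over these 20 rats.

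**Figure D5:**
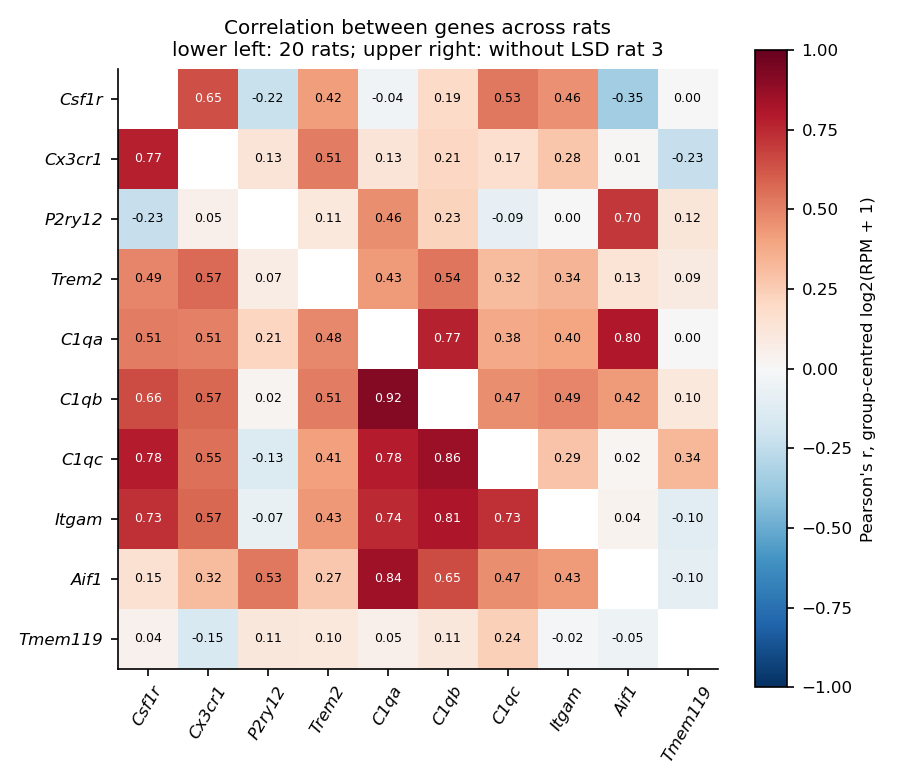
Pearson's r between the 10 genes across rats, on group-centred log2(RPM + 1), over all 20 rats (lower left) and without rat 3 of the LSD group (upper right), coloured from -1 (blue) to 1 (red). The C1q block falls from 0.783 to 0.915 in the lower left to 0.378 to 0.770 in the upper right, Aif1 with C1qa remains at 0.797, and the row and column of Tmem119 are pale throughout.

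Library size differed between the groups, and its relation to each gene was computed in the same way over the 20 rats, with adjustment over the 10 genes. P2ry12 had r = 0.644 (adjusted permutation p = 0.0606) and rho = 0.526 (adjusted permutation p = 0.0753), and r = 0.445 without the 2 rats farthest from the median library size. Aif1 had r = 0.528 (adjusted permutation p = 0.0931) and rho = 0.603 (adjusted permutation p = 0.0361), and r = 0.517 without those 2. Csf1r went the other way, with r = -0.43 (adjusted permutation p = 0.173) and rho = -0.672 (adjusted permutation p = 0.0182), and r = -0.481 without those 2. By rho, Aif1 was higher and Csf1r lower in the larger libraries of a group after scaling, whereas P2ry12 did not pass either test. For Trem2, r was -0.24 (adjusted permutation p = 0.641) and rho was -0.346 (adjusted permutation p = 0.297), and r was -0.316 without those 2. With reads drawn down to equal depth, the log2 fold change of Trem2 was -0.32. Reads drawn at random keep the expected share of each gene, so this value does not bear on a relation between level and library size.

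The genes whose pattern over the 20 rats was most like the mean log2(RPM + 1) of the 10 genes, each centred within its group, were ranked by Pearson's r over 16595 genes, as a description. The 5 highest were Pld4 (r = 0.944), Rnaset2 (0.914), Ifi27l2b (0.88), Rac2 (0.877) and Fcgr3a (0.871). Rat 3 had the highest level of each of these 5, and within the saline group alone, which does not hold that rat, r was 0.864, 0.811, 0.722, 0.898 and 0.684. The saline rats were among the 20 by which these genes were chosen, so a high r there follows in part from the choice. None was called between the groups. Pld4, an endolysosomal nuclease of myeloid cells, was at 29.9 ± 5.89 RPM with LSD and 31.8 ± 4.24 RPM with saline (SD, n = 10 each), a log2 fold change of -0.09 (adjusted p = 0.56 by edgeR). Rac2, a GTPase of blood-forming cells and microglia, had a log2 ratio of LSD to saline of -0.12 (adjusted p = 0.644).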

How the data were processed

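mPFC RNA of 20 rats, 10 given LSD and 10 given saline, was sequenced, with 1 library for each. Read trimming (TrimGalore), alignment to rn6 (Rnor_6.0, HISAT2) and counting per gene (HTSeq) were done by the authors, who deposited raw counts. Tool versions, the annotation and the strand setting are not given in the sources used here, so reads of overlapping or antisense genes may not be separated. The matrix ends with 5 rows without a name, equal to 25.5% to 29.0% of reads, which were left out.

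A minimum of 5 reads in 10 or more rats was required of a gene, which retained 16605, as in the study's methods. Differences were tested in R 4.3.3 with the quasi-likelihood F test of edgeR 4.0.16 and TMM scaling, with Benjamini-Hochberg adjustment over all retained genes; standard errors were derived from the F statistic, and 95% intervals from the t distribution with the fit's degrees of freedom. DESeq2 1.42.0, the study's tool, was an alternative, with other scalings and filters, a correction for genomic span (from GRCr8, known for 85.9% of retained genes), reads drawn down to 11098076 per rat, the replicate number as a block, and each rat left out. Correlations used log2(RPM + 1), with 100000 permutations, run with scipy 1.17.1 and numpy 2.4.6 (Python 3.11.15). Reads per rat set the counting error, and spreads are SDs over rats.

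The test was tested on simulated data with known changes. It called 31 of 100 genes with a true log2 change of 0.3, 69 of 100 with one of 0.5 and 4 of 16287 without a change. In this setting many changes of these sizes went uncalled. Far fewer genes were changed there than the 2494 called in the data, which makes the adjustment stricter. Genes were also drawn independently, without variation shared within a rat. The rates therefore do not carry over to these data. The 10 genes, the lists and the tests were chosen with earlier results of these data known. Genes named are the 10, the called genes of each list (all when 6 or fewer), Cx3cl1, Csf1, Il34 and Tyrobp, and the 5 genes most like the mean of the 10. Other genes named were picked from the lists for their known role, after their values were seen.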

Additional observations from a re-analysis of the deposited data

Results flagged for a closer look

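The highest and lowest rat of each group was compared with the rest of its group by Dixon's criterion for 39 named genes, and 22 of 78 groups of 10 rats (28.2%) had a value far from the others. Chance gives about 1 in 20 if values are normally distributed, which RPM need not be. Rat 3 of the LSD group accounted for 14 of the 22, but the genes are not independent of each other, and 5 of these 14 (Pld4, Rnaset2, Ifi27l2b, Rac2 and Fcgr3a) were named for their likeness to the mean of the 10 genes, which this rat raises. Over all 16605 genes the same criterion gave rat 3 of the LSD group in 1.1% of genes, rat 9 of the saline group in 2.88%, and rats 10 and 1 of the LSD group in 1.51% and 1.42%. In that rat Csf1r was at 202 RPM (next highest in the LSD group 159), Aif1 at 18.6 (13), C1qa at 105 (58.0), C1qb at 83.9 (41.9), C1qc at 77.2 (36.8) and Itgam at 39.7 (26.4). Of the other named genes, Tyrobp was at 15.8 RPM in it (12.3), Arhgdib at 19.4 (15.6), Ctsz at 58.9 (40.1), Pld4 at 45.8 (30.5), Rnaset2 at 30.3 (20.2), Ifi27l2b at 6.43 (2.66), Rac2 at 11.0 (6.5) and Fcgr3a at 13.8 (3.75). Trem2, P2ry12, Cx3cr1 and Tmem119 had no such value in either group.

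Rat 4 of the saline group stood above its group in Csf1r at 194 RPM (next highest 162), Itgam at 29.7 RPM (24.5) and Il34 at 98.0 RPM (83.0). Rat 9 of the saline group did so in Tyrobp at 18.2 RPM (13.1) and Apoe at 4668 RPM (3928). Rat 1 of the LSD group was the highest of its group in Crybb1 at 2.91 RPM (1.89) and Ctsb at 605 RPM (556), which lie toward the saline values. Rat 7 of the LSD group was the lowest of its group in Slc1a2 at 248 RPM (next lowest 356).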

How the results depend on the processing

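Trem2 was called lower under all 8 alternatives (log2 fold change -0.34 to -0.26, adjusted p 0.0032 to 0.0343) and with each rat left out, and it was the only one of the 10 genes called in any of them. Same-numbered rats of the LSD and saline groups had correlations of deviations from -0.259 to 0.467 (median 0.161), over 0.1 in 6 of 10 pairs. In all, 1 LSD-treated and 2 saline-treated rats correlated best with their own number. Whether rats of the same number share a source of variation was not tested. With the replicate block, Trem2 had -0.32 (adjusted p = 0.00845), C1qb turned to -0.032, and 2961 genes were called against 2494.

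Estimates near 0 changed sign without nearing the threshold. C1qa was 0.041 with total-count scaling, 0.019 without the filter, 0.008 with at least 10 reads and 0.09 with the span correction; C1qc was 0.03, 0.007 without the filter and 0.078 with the span correction; Tyrobp was 0.007 with the span correction. With each rat left out the ranges were -0.044 to 0.058 for Cx3cr1, -0.15 to 0.049 for C1qa, -0.15 to 0.059 for C1qb, -0.21 to 0.029 for C1qc, -0.083 to 0.12 for Tmem119, -0.008 to 0.14 for Itgam, 0.084 to 0.19 for P2ry12 and -0.15 to 0.011 for Tyrobp.

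Of the other listed genes, 21 were called, against 13 without the filter (4 higher, 9 lower), 10 with the span correction (1 higher, 9 lower), 15 with total-count scaling (6 higher, 9 lower), 28 with DESeq2 (7 higher, 21 lower), 30 with the replicate block (7 higher, 23 lower) and 10 to 26 with single rats left out, the lowest counts being without LSD rats 4, 5 or 8 or saline rats 1, 4 or 5. Calls over all genes moved too, from 2494 of 16605 to 1796 of 25199 without the filter and 1717 of 16605 with the span correction. They were 2362 with total-count scaling, 3057 with DESeq2 and 2961 with the replicate block, each of 16605. Calls were lost in 7 genes with total-count scaling, 8 without the filter, 13 with the span correction and 3 with reads drawn down; Crybb1, Itgb5, Il34, C5ar1, Ctsb, Ptgs2, Aldoc and Cldn11 kept theirs in all 8. Over all genes, 56.9% of calls were lower, against 36.3% with total-count scaling, 46.5% without the filter and 64.8% with the span correction, and 1632 (without LSD rat 8) to 3576 (without saline rat 2) genes were called with single rats left out; without saline rat 4 it was 1662. The median correlation of the 10 genes was 0.208 to 0.49 with single rats left out, lowest without LSD rat 3, and 0.499 with library size regressed out, an alternative added after the data were seen. The causes of these changes were not tested. The precision is that of 10 rats per group, and genes with few reads per rat, such as Crybb1 and C5ar1, carry more counting error.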

Other observations

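Some inflammatory genes of activated microglia had few or no reads in both groups, unlike Ptgs2 (196 to 597 reads per rat) and Nlrp3 (18 to 111). Nos2, the inducible nitric oxide synthase, had no read in any of the 20 rats, which allows up to 3 reads per library, or 0.112 to 0.278 RPM, and Tnf had 1 read in 1 rat. The chemokines Ccl2 (0 to 8 reads per rat), Ccl3 (0 to 6) and Ccl4 (0 to 5) and the disease-associated gene Cst7 (0 to 6) were below the filter and so are not among the genes tested in the main comparison. The same holds for the late complement genes C9 (0 to 2 reads, none in 18 rats), C8b (0 to 4) and C6 (1 to 13), and for Vsig4 (0 to 2), a macrophage receptor for C3 fragments, and Cr2 (0 to 4), a complement receptor of B cells. These bounds cover counting error only.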
